A study of Mus musculus with 48 samples.

Results

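Prox1, C1ql2, Dsp, Tdo2, Calb1, Stxbp6, Pdzd2 and Lct, 8 genes known for their RNA in dentate granule cells, were examined in RNA-seq libraries of the hippocampal CA region. They were found by symbol among the 47569 Ensembl gene IDs that the neuron RNA and whole CA RNA tables share. The mice were adult C57BL/6J animals, 4 to 6 months old, of the genotypes Setd1b cKO or control. SETD1B is an enzyme that methylates lysine 4 of histone H3 (H3K4), and cKO stands for the conditional knockout genotype as labelled. RNA came from hippocampal CA neurons (3 libraries labelled cKO, 3 labelled control) or from the whole hippocampal CA region (6 and 6). Peak lists of H3K4me3, H3K4me1, H3K9ac and H3K27ac came from neuronal nuclei sorted by flow cytometry. The Cre driver and the cells it acts in are not given in the sources used here, nor is how the neuron RNA was isolated, and the labels do not say that libraries are from separate animals. The p-values below therefore measure the spread between these libraries, which may be technical.

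Granule cells are the principal neurons of the dentate gyrus, the hippocampal field that lies next to CA3. Their axons, the mossy fibres, run into CA3, while the cell bodies stay in a compact layer that a dissection of the CA region is meant to leave behind. Their RNA in a CA sample can therefore vary with how much of the dentate gyrus came along, and in bulk samples fewer cells of a type and less RNA per cell cannot be told apart. Prox1, a homeobox transcription factor, sets and maintains granule cell identity and is also made by some interneurons. C1ql2 is a secreted C1q-like protein of mossy fibre synapses. Dsp encodes desmoplakin, which ties cell junctions to intermediate filaments. Tdo2 (tryptophan dioxygenase) and Calb1 (the calcium buffer calbindin) mark mature granule cells, and Calb1 is also made by CA1 pyramidal cells and interneurons. Stxbp6 (amisyn) binds SNARE proteins of the vesicle fusion machinery, Pdzd2 is a large PDZ domain protein, and Lct encodes lactase, best known as an intestinal enzyme.

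The promoters of 4 of these genes are shown because the H3K4me3 peaks at their starts, described further on, ranged from the widest to none. They were chosen after those values were seen. RefSeq sequences of 250 bases before to 50 bases after the start (build GRCm38.p6) were matched by symbol for 7 of the 8 genes, 2 starts in the case of Prox1. Each sequence runs 5′ to 3′ on the strand of the gene, and capitals mark CG dinucleotides, which read the same on both strands.
Prox1 (chr1:190170778-190171077, minus strand): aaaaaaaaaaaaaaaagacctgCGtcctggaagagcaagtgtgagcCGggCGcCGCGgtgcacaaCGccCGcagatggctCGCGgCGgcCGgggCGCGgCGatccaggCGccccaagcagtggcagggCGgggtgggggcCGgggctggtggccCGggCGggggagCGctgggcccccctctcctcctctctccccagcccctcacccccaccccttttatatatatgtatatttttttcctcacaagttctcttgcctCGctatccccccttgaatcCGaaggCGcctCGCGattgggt
C1ql2 (chr1:120340332-120340631, plus strand): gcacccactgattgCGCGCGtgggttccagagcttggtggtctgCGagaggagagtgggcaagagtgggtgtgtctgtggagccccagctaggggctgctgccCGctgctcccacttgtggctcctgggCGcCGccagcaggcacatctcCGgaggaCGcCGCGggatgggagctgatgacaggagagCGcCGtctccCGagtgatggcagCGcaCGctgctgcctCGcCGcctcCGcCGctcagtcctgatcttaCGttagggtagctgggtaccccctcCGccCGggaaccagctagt
Tdo2 (chr3:81975679-81975978, minus strand): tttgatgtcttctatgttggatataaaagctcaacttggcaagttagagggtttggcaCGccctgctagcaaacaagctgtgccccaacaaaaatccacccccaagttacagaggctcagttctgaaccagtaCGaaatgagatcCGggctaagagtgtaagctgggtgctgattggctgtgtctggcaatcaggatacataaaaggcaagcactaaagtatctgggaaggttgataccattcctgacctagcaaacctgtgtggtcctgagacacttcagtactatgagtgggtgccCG
Lct (chr1:128328269-128328568, minus strand): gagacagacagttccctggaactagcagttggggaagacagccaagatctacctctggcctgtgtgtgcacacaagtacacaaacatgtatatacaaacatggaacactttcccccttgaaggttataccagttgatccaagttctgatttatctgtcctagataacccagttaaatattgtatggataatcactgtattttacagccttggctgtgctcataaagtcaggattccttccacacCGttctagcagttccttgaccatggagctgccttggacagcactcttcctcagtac
The Prox1 promoter held 25 CG dinucleotides and that of C1ql2 held 23, against a median of 7 over all 32851 promoters of the same length. The Tdo2 promoter held 4 and that of Lct held 1. The promoters of Dsp (27), Pdzd2 (23) and Stxbp6 (19) were also rich in CG. The letters TATAAA, searched on both strands, were in the Tdo2 and Prox1 promoters shown and in 13.6% of all promoters.

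The libraries held 55.7 to 69.1 M counted reads for neurons and 14.9 to 20.1 M for whole CA tissue. The mean level of Setd1b, the targeted gene, went against the labels. It was 64.6 ± 6.16 CPM (reads per 1 M counted reads, with TMM factors within each material) in neuron libraries labelled cKO and 54.5 ± 9.62 in those labelled control (SD, n = 3 each). In whole CA it was 59.4 ± 6.29 and 39.6 ± 8.68 (SD, n = 6 each). The Setd1b levels of the genotypes overlapped in both materials. A count over the whole gene does not single out a deleted part, and all directions below are between libraries as labelled. Markers of CA fields were present in all libraries, with summed levels of 674 to 930 CPM for 6 CA1 genes in neuron RNA. Summed levels of 5 astrocyte markers were 25.4 to 32.1 CPM in neuron RNA and 1342 to 1727 CPM in whole CA RNA.

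All 8 genes had counts in every RNA library and passed the filter on low counts in both materials. Their fitted log2 fold changes (labelled cKO minus labelled control) were below 0 in both materials. In neuron RNA, C1ql2, Dsp, Tdo2 and Lct fell (4 of 8; 2.75% of the 19622 genes tested were called in either direction, and 2% as lower). In whole CA RNA, Dsp, Calb1, Stxbp6 and Lct fell (4 of 8; 4.17% of 15362 genes were called, and 2.79% as lower). The 8 genes had a median log2 fold change of -0.61 in neuron libraries and -0.51 in whole CA libraries, against 0.02 and -0.0027 over all genes tested. Because the 8 genes were chosen with earlier results of these data known, these shares and medians are descriptions. They are no independent comparison with the background. Lct and Dsp were called in both materials. Single libraries decided the counts: in neuron RNA 1 member was called without cKO 1, cKO 2 or control 2 and 2 without control 3. In whole CA 1 was called without cKO 5 or control 5, and 2 without cKO 2, cKO 4, control 2 or control 3.

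**Figure D1:**
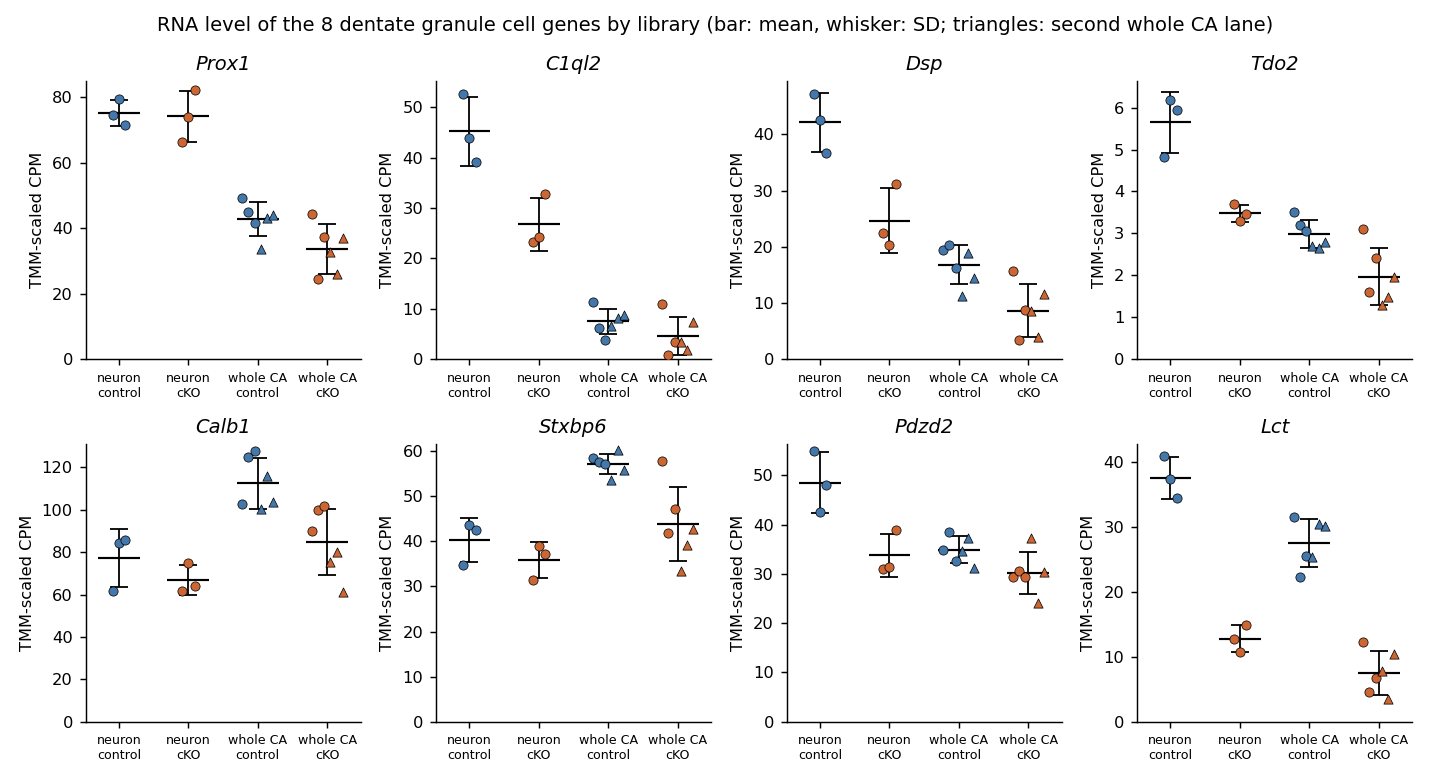
TMM-scaled CPM (vertical axes, from 0) of each gene in every RNA library, by material and genotype label, with the mean as a bar and the SD as a whisker; triangles are the second whole CA lane. Lct is the gene whose groups lie apart in both materials, and in whole CA the 6 cKO libraries of C1ql2 run from 0.730 to 10.9 CPM.

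Prox1, the identity factor, was at 66.5, 73.9 and 82.1 CPM in neuron libraries labelled cKO and at 74.5, 79.5 and 71.7 CPM in those labelled control. The groups overlapped, and the log2 fold change was -0.02 (SE 0.10; adjusted p in edgeR = 0.930). In whole CA, Prox1 ran from 24.5 to 44.4 CPM (median 34.9) in cKO and from 33.6 to 49.2 CPM (median 43.7) in control libraries. The groups overlapped there too, with a log2 fold change of -0.35 (SE 0.12; adjusted p in edgeR = 0.145). Prox1 was called in whole CA without cKO 1, the highest library (edgeR adjusted p = 0.0426).

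C1ql2, the mossy fibre synapse protein, was at 23.3, 24.2 and 32.8 CPM in neuron libraries labelled cKO and at 52.6, 43.8 and 39.2 CPM in control libraries. Every cKO library was below every control library, and the log2 fold change was -0.76 (SE 0.15; adjusted p in edgeR = 0.0299). The call was lost without cKO 1 (edgeR adjusted p = 0.164), cKO 2 (0.107) or control 2 (0.0630). In whole CA, C1ql2 ran from 0.730 to 10.9 CPM (median 3.37) in cKO and from 3.86 to 11.3 CPM (median 7.37) in control libraries. These levels rest on 11 to 185 reads, the groups overlapped widely, and the log2 fold change of -0.69 (SE 0.39) did not pass (edgeR adjusted p = 0.433). Its 95% interval, -1.52 to 0.13, holds both 0 and the neuron value.

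Dsp, the desmosome linker, was at 22.4, 20.2 and 31.2 CPM in neuron libraries labelled cKO and at 47.1, 42.5 and 36.8 CPM in control libraries. The groups did not overlap, with a log2 fold change of -0.78 (SE 0.16; adjusted p in edgeR = 0.0352). The call was lost without any 1 of cKO 1, cKO 2, control 1, control 2 or control 3 (edgeR adjusted p from 0.0511 to 0.193). In whole CA, Dsp ran from 3.45 to 15.7 CPM (median 8.59) in cKO and from 11.3 to 20.4 CPM (median 17.6) in control libraries. Only cKO 1 and cKO 6 reached the range of the controls, and the log2 fold change was -0.96 (SE 0.26; adjusted p in edgeR = 0.0472). This call was lost without any 1 of cKO 2 to cKO 5 or of controls 1, 2, 3, 5 and 6 (edgeR adjusted p from 0.0651 to 0.0988). It was not made within the first lane (0.197) or the second lane (0.195) in edgeR, nor by DESeq2 on all libraries (adjusted p = 0.0854).

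Tdo2, the enzyme that opens the tryptophan ring, was at 3.69, 3.29 and 3.46 CPM in neuron libraries labelled cKO and at 4.83, 6.19 and 5.94 CPM in control libraries. The groups did not overlap, and the log2 fold change was -0.70 (SE 0.13; adjusted p in edgeR = 0.0201). The call was lost without cKO 1, cKO 2, control 2 or control 3 (edgeR adjusted p from 0.0672 to 0.0836). In whole CA, Tdo2 ran from 1.29 to 3.11 CPM (median 1.77) in cKO and from 2.66 to 3.51 CPM (median 2.93) in control libraries, on 24 to 54 reads. Only cKO 1 reached the controls. The log2 fold change was -0.60 (SE 0.20; adjusted p in edgeR = 0.103), and without cKO 1 it was -0.78 (edgeR adjusted p = 0.0205).

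Calb1, the calcium buffer, was at 61.7, 74.8 and 63.8 CPM in neuron libraries labelled cKO and at 61.7, 84.5 and 85.7 CPM in control libraries. Control 1 was as low as the lowest cKO library, and the log2 fold change of -0.21 (SE 0.13) did not pass (edgeR adjusted p = 0.457). In whole CA it ran from 61.3 to 101.8 CPM (median 85.0) in cKO and from 100.2 to 127.8 CPM (median 109.9) in control libraries. Only cKO 3 reached the lowest control, and Calb1 fell (log2 fold change -0.41, SE 0.10; adjusted p in edgeR = 0.0276). The call was lost without cKO 4, cKO 5 or controls 2, 3 or 5 (edgeR adjusted p from 0.0567 to 0.0738), and within the first lane alone (0.198).

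Stxbp6, the SNARE-binding protein, was at 31.5, 38.9 and 37.2 CPM in neuron libraries labelled cKO and at 34.7, 43.6 and 42.5 CPM in control libraries, which overlapped (log2 fold change -0.17, SE 0.12; adjusted p in edgeR = 0.497). In whole CA it ran from 33.5 to 57.8 CPM (median 42.4) in cKO and from 53.7 to 60.2 CPM (median 57.4) in control libraries. The 6 controls were close together and cKO 1 was the single cKO library among them. Stxbp6 fell in whole CA by 0.39 on the log2 scale (SE 0.09; adjusted p in edgeR = 0.0227). The call was lost without cKO 2, cKO 5 or control 5 (edgeR adjusted p from 0.0524 to 0.0534). It was not made within the first lane (log2 fold change -0.24, edgeR adjusted p = 0.390) and was made within the second (0.0167).

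Pdzd2, the PDZ protein, was at 31.1, 31.5 and 38.9 CPM in neuron libraries labelled cKO and at 54.9, 42.6 and 48.1 CPM in control libraries. Those groups did not overlap, but the log2 fold change of -0.52 (SE 0.12) narrowly missed the threshold (edgeR adjusted p = 0.0579). It passed without cKO 3 (0.0250), with no filter on low counts (0.0172) and by DESeq2 (0.00334). In whole CA it ran from 24.1 to 37.3 CPM (median 29.98) in cKO and from 31.2 to 38.5 CPM (median 34.8) in control libraries, and the log2 fold change of -0.21 (SE 0.09) did not pass (edgeR adjusted p = 0.236).

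Lct, the lactase gene, showed the largest difference of the 8 in both materials. It was at 12.8, 10.7 and 14.9 CPM in neuron libraries labelled cKO and at 40.9, 37.4 and 34.5 CPM in control libraries. In whole CA it ran from 3.56 to 12.3 CPM (median 7.30) in cKO and from 22.2 to 31.5 CPM (median 27.8) in control libraries. Neither pair of groups overlapped. Lct fell by 1.56 on the log2 scale in neuron RNA (SE 0.13; adjusted p in edgeR = 0.000295), which is 2.94-fold, and by 1.86 in whole CA (SE 0.21; adjusted p in edgeR = 1.37e-05), which is 3.63-fold. It was called under all 13 alternatives tried in neuron RNA and all 22 in whole CA RNA, with the highest adjusted p at 0.00748 and 0.00228.

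The groups did not overlap for 5 of the 8 genes in neuron RNA, where cKO libraries were all lower than control libraries for 12.4% of all genes tested. In whole CA that held for Lct alone, against 1.93% of all genes tested. The genotype differences of the 8 genes were then compared between the materials with an interaction term in 1 fit of all 18 RNA libraries. No member was called and none had an unadjusted p under 0.05 (0.16% of 17523 genes were called). The largest interaction in size, for Prox1, was 0.33 (SE 0.19, 95% interval -0.06 to 0.72, edgeR adjusted p = 0.643).

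**Figure D2:**
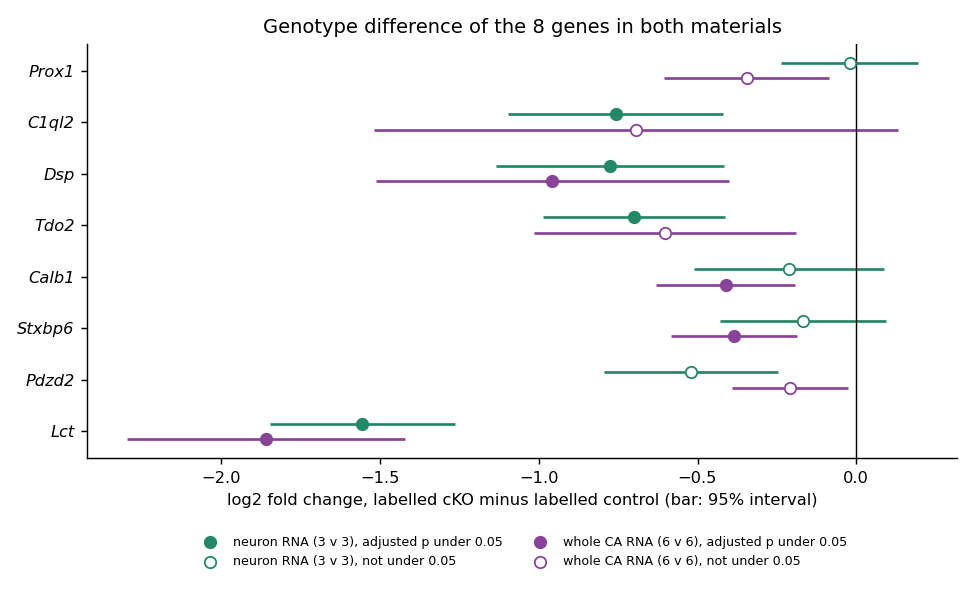
Log2 fold change (horizontal axis, labelled cKO minus labelled control) with its 95% interval for each gene in neuron RNA (green) and whole CA RNA (purple); filled points passed an edgeR adjusted p of 0.05. All 16 points lie below 0, Lct farthest at -1.56 and -1.86, and the interval of C1ql2 in whole CA reaches from -1.52 to 0.13.

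The control libraries show where the RNA of these genes stood in neuron RNA against whole CA RNA, a difference in which material, sequencing run and depth cannot be told apart. C1ql2 was higher in neuron RNA by 2.43 on the log2 scale (SE 0.34), Dsp by 1.15 (SE 0.26), Tdo2 by 0.75 (SE 0.17), Prox1 by 0.64 (SE 0.13) and Pdzd2 by 0.30 (SE 0.11), with edgeR adjusted p from 6.91e-07 to 0.0145. Pdzd2 lost its call without neuron control 1 (edgeR adjusted p = 0.128). Calb1 (-0.72, SE 0.13) and Stxbp6 (-0.68, SE 0.11) were lower in neuron RNA. Lct did not differ past the threshold (0.28, SE 0.21, edgeR adjusted p = 0.217), though it did with library size only (0.0456) and with no filter (0.0170). These 7 calls are near the background, since 83% of all genes tested were called between the materials.

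The spread of the 8 genes between libraries was then described. It was measured as the SD of log2 CPM around the group means and set beside that of genes of like level in the same material. In whole CA the SD was 1.005 for C1ql2, higher than in 99.9% of such genes, 0.65 for Dsp (99.6%) and 0.50 for Lct (99.4%). It was 0.34 for Tdo2, 0.27 for Prox1, 0.22 for Calb1, 0.19 for Stxbp6 and 0.16 for Pdzd2, against a median of 0.17 over all genes. Prox1 was above 96.3% of genes of like level and Tdo2, a low gene, above 59.04%. In neuron RNA the SDs of the 8 genes were 0.12 to 0.26, and the highest percentile among genes of like level was 93.6, for Dsp.

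In whole CA the SD was larger among libraries labelled cKO than among control libraries for all 8 genes. It was 1.32 against 0.52 for C1ql2, 0.85 against 0.32 for Dsp, 0.68 against 0.20 for Lct and 0.26 against 0.06 for Stxbp6. The median over all genes was 0.17 in cKO and 0.15 in control libraries. The share of all genes with the larger SD in cKO was not computed. The 8 genes share the same libraries and are not separate observations of this spread. C1ql2 had a 14.9-fold range over the cKO libraries, Dsp a 4.55-fold and Lct a 3.47-fold range, while in control libraries the ranges were 2.92-fold, 1.81-fold and 1.42-fold. Without cKO 2 the SD of C1ql2 was 0.76. In neuron RNA the SD was larger in cKO for Prox1, C1ql2, Dsp and Lct and larger in control for the other 4 genes.

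The same libraries stood high or low for several genes. Of the cKO libraries of whole CA, cKO 1 was highest for 6 of the 8 genes (all but Calb1 and Pdzd2). Library cKO 2 was lowest for Prox1, C1ql2 and Dsp, yet above its group mean for Calb1 and Pdzd2. Library cKO 5 was below its group mean for all 8 genes, and so was control 4 among the controls. The mean deviation of the 8 genes ran from -0.52 in cKO 2 to 0.65 in cKO 1, and from -0.18 in control 4 to 0.18 in control 1. The part of dissection in this spread was not tested. Both lanes held libraries above and below the mean: in the first lane cKO 1 and cKO 2, in the second cKO 6 (0.26) and cKO 5 (-0.48).

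**Figure D3:**
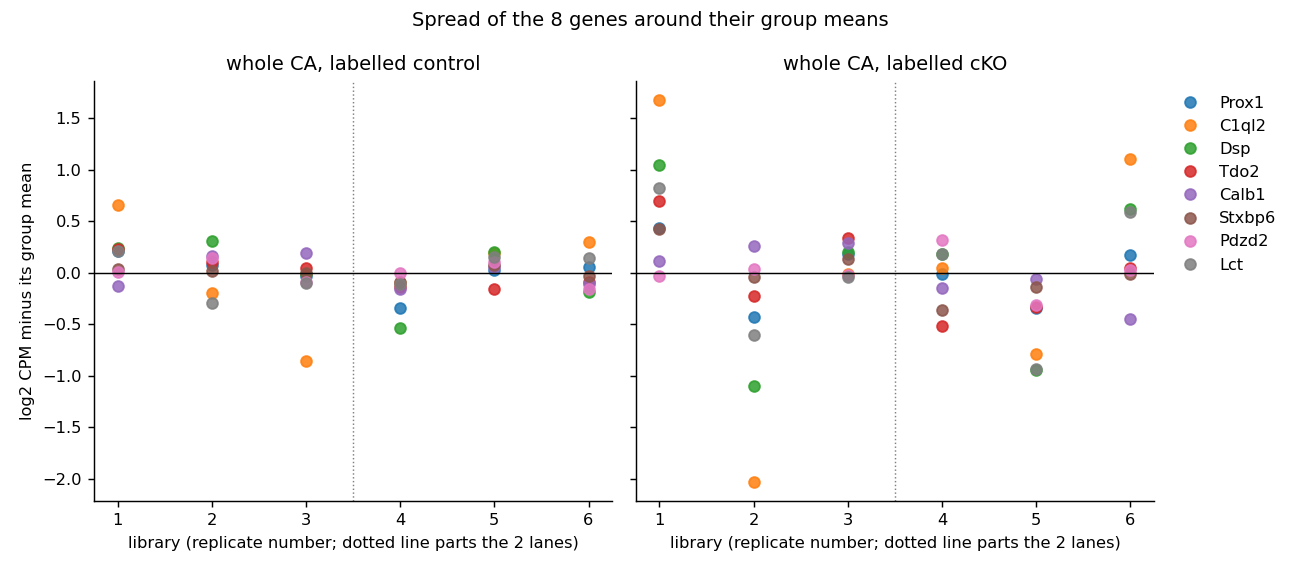
Log2 CPM minus the group mean (vertical axis) of the 8 genes in each whole CA library (horizontal axis), controls left and cKO right. In cKO 1 the deviation averages 0.65 and in cKO 2 it averages -0.52, with C1ql2 the widest gene; Calb1 is high in cKO 2 and low in cKO 6, where C1ql2 is the other way round.

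All 28 pairs of the 8 genes were then correlated over the 12 whole CA libraries after centring each group on its mean. Pearson's r was above 0 for 21 pairs and ran from -0.48 to 0.95, with 7 pairs passing an adjusted permutation p of 0.05 and 5 by Spearman's rho. The 4 pairs that passed both are described here. Prox1 and Dsp had r = 0.95 (adjusted permutation p = 0.0101) and rho = 0.87 (adjusted permutation p = 0.0267), with r = 0.89 without cKO 1 and cKO 2 and r = 0.97 and 0.91 within the lanes. Prox1 and C1ql2 had r = 0.83 (adjusted permutation p = 0.0390) and rho = 0.80 (adjusted permutation p = 0.0432), with r = 0.63 without those libraries and 0.98 and 0.86 within the lanes.

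C1ql2 and Lct had r = 0.87 (adjusted permutation p = 0.0390) and rho = 0.92 (adjusted permutation p = 0.0129), with r = 0.82 without cKO 1 and cKO 2 and 0.94 and 0.95 within the lanes. Tdo2 and Stxbp6 had r = 0.92 (adjusted permutation p = 0.0133) and rho = 0.83 (adjusted permutation p = 0.0414). Without cKO 1 and cKO 4 that r was 0.76, and within the lanes it was 0.95 and 0.81. Calb1 went with none of the other 7 genes past the threshold, and its lowest r was with C1ql2 (-0.48, adjusted permutation p = 0.465; rho -0.50, adjusted permutation p = 0.336). Each point of these relations shares its library and depth between both genes.

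**Figure D4:**
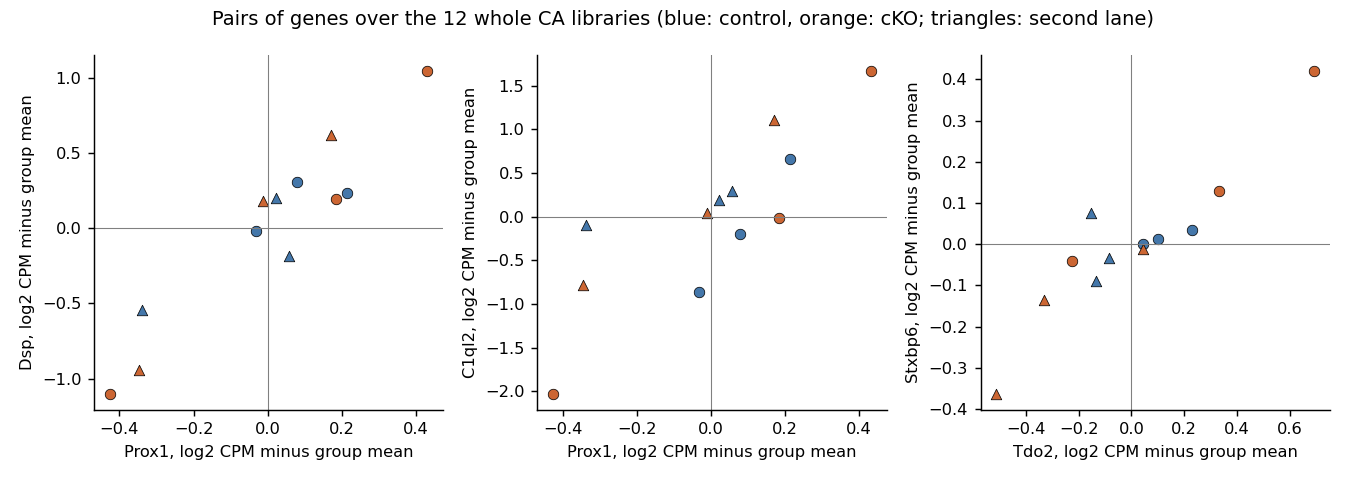
Each point is 1 of the 12 whole CA libraries, with log2 CPM minus its group mean for a gene on each axis (blue control, orange cKO, triangles second lane). Prox1 rises with Dsp (r = 0.95) and with C1ql2 (r = 0.83), and Tdo2 with Stxbp6 (r = 0.92); the outermost points are cKO libraries.

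Other genes were ranked by the likeness of their centred level to the mean of the 8. In whole CA the closest included Plekhm1 (r = 0.92), Npnt (0.90), Unc13a (0.88), Crtc1 (0.87) and Ddx55 (0.87), over 12 libraries and out of 13154 candidates. Npnt had an SD of 0.29 around the group means, while Unc13a had 0.07. Over the 6 neuron libraries Sgcd, Gm42727, Surf4, Nbea and Gm43597 were among the closest out of 13456, with r from 0.992 to 0.999. With so many candidates and few libraries, these r values are descriptions of the ranking.

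Of 16 other genes known for dentate granule cells, all passed the filter in both materials and 14 had a log2 fold change below 0 in each. In neuron RNA 2 were called, both lower: Il16, a cytokine precursor (-1.19, SE 0.12, edgeR adjusted p = 0.000923), and Trpc6, a cation channel (-0.59, SE 0.11, edgeR adjusted p = 0.0259). In whole CA, Il16 (-1.37, SE 0.09, edgeR adjusted p = 7.23e-09), the transcription factor Rfx3 (-0.56, SE 0.08, edgeR adjusted p = 0.000234) and the guidance cue Sema5a (-0.51, SE 0.08, edgeR adjusted p = 0.000597) fell. Smad3, a TGF-beta signal transducer, rose there (0.26, SE 0.06, edgeR adjusted p = 0.0216). The 16 genes had medians of -0.18 (neuron RNA) and -0.21 (whole CA). Of all genes tested, 2.75% were called in neuron RNA and 4.17% in whole CA. The share of all genes with a log2 fold change below 0 was not computed, and this list too was chosen with earlier results known. Plk5 had the widest spread of them in whole CA (SD 0.90), at 0.663 CPM in cKO 2 and 4.41 CPM in cKO 1.

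Some genes of the marker lists of other cells moved as well, lists that were also chosen with earlier results of these data known. Of all genes tested, 2.79% were called lower in whole CA and 2% in neuron RNA. In whole CA, 4 of 6 CA3 markers (among them St18 at -1.24 and Iyd at -1.42) and 3 of 6 CA2 markers (among them Amigo2 at -0.70 and Pcp4 at -0.74) were called lower, and 0 of 10 interneuron and 0 of 5 mossy cell markers were called. The summed CA3 level was 235 to 257 CPM in cKO and 324 to 364 CPM in control libraries. The summed CA2 level was 239 to 274 and 292 to 330 CPM, and that of the 8 granule cell genes 180 to 264 and 268 to 318 CPM. Calb1, also made by CA1 cells, had means of 84.7 and 112.6 CPM within the last sum. The summed level of the other granule cell genes listed above overlapped, at 885 to 1027 and 999 to 1090 CPM. The share of gene sets with such a gap in whole CA was not computed. Wfs1 of 6 CA1 markers (-0.43), Aqp4 of 5 astrocyte markers (-0.38), Cx3cr1 of 4 microglia markers (-0.22), Kl of 6 choroid plexus markers (-1.04) and Dcn of 7 meningeal markers (-2.25) were called lower there.

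In neuron RNA the called markers were Wfs1 (-1.11), Amigo2 (-0.62), St18 (-1.44), Kl (-1.07) and Dcn (-1.92), 1 each of the CA1, CA2, CA3, choroid plexus and meningeal lists, all lower. Kl and Dcn stood apart from their lists. In control neuron libraries their means were 27.6 and 42.5 CPM, against at most 0.640 and 6.02 CPM for the other genes of each list. Which cells made this RNA was not tested, so neither difference is read as one of choroid plexus or meninges. No immature neuron, oligodendrocyte or endothelial marker was called in either material. The part of these differences in those of the granule cell genes was not tested.

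Last, H3K4me3, the mark that SETD1B can write and that sits at active promoters, was examined at the starts of the 7 genes with a RefSeq start. The measure was the length covered by the authors' peaks within 2500 bp of the start, in 4 neuron libraries labelled cKO and 4 labelled control, tested with limma over 18245 starts. Shorter coverage in cKO was called at 21.9% of all starts and longer coverage at 0.893%, with a median log2 difference of -0.08. Of 8 starts of the 7 genes, 7 had peaks and 6 were called, all shorter. Per the file headers, all peak calls of a genotype used the same single input library, and input and genotype cannot be told apart in these lengths.

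At the distal Prox1 start, the promoter shown above, 3 of the 4 control libraries were covered over the whole 5001 bp window and the fourth over 4866 bp. The libraries labelled cKO had 2966, 3417, 3719 and 3459 bp. The groups were far apart and the log2 difference was -0.54 (SE 0.06, limma adjusted p = 0.00145), a lower limit in size because the control windows were full. The other Prox1 start, inside the same peak, differed by -0.55 (SE 0.06, limma adjusted p = 0.00113). At both starts the full windows also cut off the spread between control libraries, so these SEs and p-values do not measure all of it. In control libraries Prox1 was covered more widely than 99.7% of all gene starts.

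The Tdo2 start, poor in CG, had peaks of 365, 189, 715 and 445 bp in control libraries and none in any of the 4 cKO libraries. The log2 difference on the scale of bp + 100 was -2.31 (SE 0.28, limma adjusted p = 0.00148). These control peaks were weak, with a highest −log10 q of 4.00 to 7.83, and with peaks of −log10 q of at least 5 alone the difference did not pass (limma adjusted p = 0.0640). A start without a peak is not shown to be without the mark.

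Pdzd2 had 3382 to 3598 bp in control and 2581 to 2875 bp in cKO libraries (log2 difference -0.34, SE 0.04, limma adjusted p = 0.00189). Stxbp6 had 3405 to 3506 bp and 2203 to 3130 bp (-0.35, SE 0.09, limma adjusted p = 0.0324), and Dsp 2298 to 2688 bp and 1893 to 2107 bp (-0.25, SE 0.06, limma adjusted p = 0.0202). The call of Stxbp6 was lost without cKO 3, cKO 4 or any 1 of the 4 controls (limma adjusted p from 0.0629 to 0.0760), and that of Dsp without control 4 (0.0510) or with peaks of −log10 q of at least 5 alone (0.0581). C1ql2 had 2929 to 2995 bp and 2702 to 2842 bp, groups that did not overlap, with a difference of -0.09 (SE 0.03) that did not pass (limma adjusted p = 0.0648). The share of all gene starts with such a gap in H3K4me3 was not computed.

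The Lct start, whose promoter above holds 1 CG, had no H3K4me3 peak within 2500 bp in any of the 8 libraries and was not tested. At the same start H3K27ac peaks, a mark of active promoters and enhancers, covered 1504 to 2795 bp in the 3 control and 1609 to 2380 bp in the 4 cKO libraries, which overlapped. H3K27ac was not tested at any gene. Its control and cKO lengths did not overlap at C1ql2 (2368 to 2846 and 1011 to 1592 bp), Dsp (1410 to 1755 and 0 to 1376 bp), Stxbp6 (2353 to 2768 and 1920 to 2054 bp) or Pdzd2 (2462 to 3273 and 1439 to 2326 bp), cKO being shorter at each. They overlapped at Tdo2 and at both Prox1 starts. The share of all gene starts with such a gap in H3K27ac was not computed, so the gaps are not shown to be particular to these genes.

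**Figure D5:**
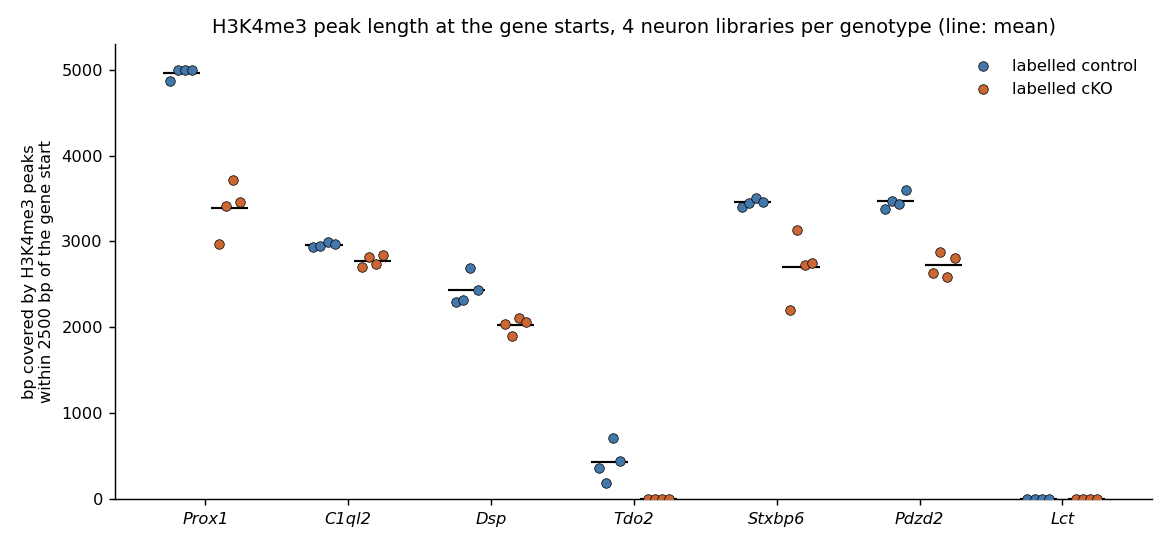
Length covered by H3K4me3 peaks within 2500 bp of the gene start (vertical axis, bp) in the 4 neuron libraries of each genotype label, with the mean as a line; the distal start stands for Prox1. Prox1 fills the 5001 bp window in 3 controls and 4866 bp of it in the other, Tdo2 is at 0 in all cKO libraries, and Lct is at 0 in all 8.

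H3K4me3 peaks elsewhere in the genes are given as descriptions chosen after the values were seen, with no test. Inside Lct, 9010 to 10395 bp from its start (chr1:128317923-128319308, read on GRCm38), peaks covered 1127, 1272, 1297 and 1012 bp in control libraries. The same region had 334, 273, 446 and 210 bp in cKO libraries. The highest −log10 q there was 28.2 to 45.1 in control and 2.90 to 7.07 in cKO libraries, and neither measure overlapped. How many other peak regions show such a gap was not computed.

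At the 5′ end of Calb1 (chr4:15880427-15884030) peaks covered 3019 to 3514 bp in control and 1910 to 2347 bp in cKO libraries. Over the whole extent of each gene with 2500 bp on each side, the mean covered length was lower in cKO for 7 of the 8 genes, as for Prox1 (3579 ± 449 against 8736 ± 682 bp, SD, n = 4 each). Pdzd2 went the other way, with 9766 ± 1240 bp in cKO and 8262 ± 487 bp in control libraries, and its ranges overlapped (8082 to 11066 and 7726 to 8699 bp). The share of all genes with a lower mean over the whole extent was not computed. Around gene starts, shorter coverage was called at 21.9% of all starts.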

How the data were processed

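The deposited RNA tables gave a read count per Ensembl gene ID; aligner, counter and strandedness are not given in the sources used here, so overlapping genes are uncertain. ChIP files as deposited were peak lists with a −log10 q-value per peak, called per library by MACS 2.1.0.20140616 or 2.1.1.20160309, per the file headers; the submitters' processing notes name SAMtools, MACS2 and the builds mm10 and GRCm38. Peak ends (positions and lengths) were read as deposited and set against RefSeq starts of GRCm38.p6.

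Symbols matched 99.3% of neuron and 98.9% of whole CA IDs. The tool for counts was edgeR 4.0.16 (quasi-likelihood test, TMM, filterByExpr) in R 4.3.3, per material, with Benjamini-Hochberg adjustment over all genes tested and calls under 0.05. Log2 CPM used a prior count of 2. H3K4me3 lengths were tested with limma 3.58.1 on log2 of bp + 100, at starts with a peak in at least 3 libraries. Correlations used 100000 permutations. The genotype fit of each material and the H3K4me3 length fit were tested on simulated data. The fit of all 18 RNA libraries was not. Alternatives were other factors, filters, DESeq2 1.42.0, lanes named in the file names, blocks and left-out libraries. Genes named were the 8 members, called genes of the marker lists (up to 5 per direction for other granule cell genes, up to 2 per other list), the 6 genes per material most like the mean of the members (mean log2 CPM at or above 1), and Setd1b. Of the genes most like the mean, 1 per material is not reported here. The members and lists were chosen with earlier results of these data known.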

Additional observations from a re-analysis of the deposited data

Results flagged for a closer look

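Over the 29 groups of 4 or 6 libraries checked, RNA levels of the 8 genes in whole CA and their H3K4me3 lengths, 2 had a library far from the others, and chance gives about 1 in 20. Both are the control windows at the starts of Prox1, where control 1 was covered over 4866 bp and 4931 bp and the other 3 control libraries over 5001 bp each. The gap to the nearest library was 1 times the range of the group in both, since the other 3 windows were full.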

How the results depend on the processing

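Neuron RNA gave 539 called genes, 930 at an adjusted p under 0.1, 840 with DESeq2 and 207 to 482 with a library left out. Members called there went from 4 to between 1 and 5 with a library left out. Whole CA gave 640 called genes, 207 in the first lane and 224 in the second; its members called went from 4 to 1 in the first lane and to between 1 and 6 with a library left out. The interaction gave 28 called genes, 69 with no filter, 75 with DESeq2 and 18 to 32 with a library left out. H3K4me3 gave 4161 called starts, and 267 with 1000 bp on each side, where the length differences of C1ql2 (0.0294) and Pdzd2 (0.0153) also changed sign. The calls of Prox1, Stxbp6 and Dsp were lost in these windows. Such windows are shorter than most of the covered lengths given above for these genes, so they cannot show differences beyond their ends. With a library left out, log2 differences that changed sign ranged from -0.0999 to 0.0516 for Prox1 in neuron RNA (above 0 without cKO 1 or control 2), and for interactions from -0.268 to 0.386 for C1ql2, from -0.0151 to 0.439 for Dsp and from -0.185 to 0.0887 for Tdo2. The cause was not tested.

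With the replicate number as a block, neuron RNA gave 327 called genes and 1 called member, Lct; C1ql2, Dsp and Tdo2 had edgeR adjusted p of 0.0874, 0.0844 and 0.0730. In whole CA the block gave 839 called genes, and Prox1 (0.0393) and Tdo2 (0.0461) passed. The H3K4me3 call of Stxbp6 was lost with the block (limma adjusted p = 0.0563). The labels do not say what a number shares, and same-numbered libraries were not taken as pairs because not every pair deviated together: r was -0.06 to 0.29 in neuron RNA, -0.06 to 0.20 in whole CA (above 0.1 in 4 of 6 pairs) and -0.05 to 0.11 in H3K4me3. In whole CA the numbers 1 to 3 are the first lane and 4 to 6 the second in both genotypes, so the block also takes up the lane. Direction and side of the threshold held for Lct in both materials under all alternatives run. Whole CA levels of C1ql2, Plk5 and Tdo2 rest on few reads, which limits what this depth can show.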
